A study of Rattus norvegicus with 6 samples.

Results

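Catalase, the superoxide dismutases and the peroxiredoxins are the enzymes that cells keep ready to remove superoxide and hydrogen peroxide. The 10 genes described here, Cat, Sod1, Sod2, Sod3 and Prdx1 to Prdx6, were chosen by name, as constitutive antioxidant enzymes, and not by their values. Earlier results of these data were known when these genes were chosen. They are 10 of 15639 gene symbols with a probe on the array. All 10 were found, on 13 of the 61537 non-control probes, and each gene is represented by its probe of highest mean signal over the 6 arrays. Sod1 had 3 probes, Sod2 had 2 and the other genes had 1 each. The RNA was total RNA of renal cortex from male rats of the Sprague-Dawley stock, bought at an age of 5 weeks and kept on a basal diet. Per the labels, carbon tetrachloride was given to 3 rats (100 mg/kg/day over 4 weeks) and corn oil to 3 others over the same time. The series' design text names benzyl acetate as the agent, but its title and the sample labels give carbon tetrachloride, and the groups follow these. Each rat gave 1 single-colour Agilent array, 5 of them on slide 1 and carbon tetrachloride replicate 3 alone on slide 2, and this number of arrays limits the precision of every value.

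Superoxide dismutases turn superoxide, a radical leaked by respiration and made by oxidases, into hydrogen peroxide and oxygen. Sod1 encodes the copper and zinc enzyme of the cytosol, Sod2 the manganese enzyme of mitochondria and Sod3 a copper and zinc enzyme secreted into the extracellular matrix. Hydrogen peroxide is then removed by catalase, a haem enzyme of peroxisomes, and by peroxiredoxins, which use a reactive cysteine. In most peroxiredoxins thioredoxin reduces this cysteine again. The kidney cortex is rich in mitochondria and peroxisomes, most of all in its proximal tubules. Carbon tetrachloride is converted by cytochrome P450 enzymes, mainly in the liver, into radicals that start lipid peroxidation.

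The promoters of Sod2 and Prdx1 are shown because these genes had the widest spread between rats (values below) and because Prdx1 is a textbook target of the stress-activated factor NRF2. Capitals mark the core of the antioxidant response element to which NRF2 binds, searched as TGACNNNGC on both strands of the RefSeq promoters of the build GRCr8, from 250 bases before to 50 bases after the transcript start. The stretches are chr1:50050119-50050418 on the minus strand for Sod2 and chr5:135383656-135383955 on the plus strand for Prdx1.
Sod2: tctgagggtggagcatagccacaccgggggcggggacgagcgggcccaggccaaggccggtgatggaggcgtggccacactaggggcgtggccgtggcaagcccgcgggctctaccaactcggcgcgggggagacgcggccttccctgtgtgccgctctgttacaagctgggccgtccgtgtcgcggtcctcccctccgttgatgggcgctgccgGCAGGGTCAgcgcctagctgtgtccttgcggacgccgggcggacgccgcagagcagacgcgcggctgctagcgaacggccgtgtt
Prdx1: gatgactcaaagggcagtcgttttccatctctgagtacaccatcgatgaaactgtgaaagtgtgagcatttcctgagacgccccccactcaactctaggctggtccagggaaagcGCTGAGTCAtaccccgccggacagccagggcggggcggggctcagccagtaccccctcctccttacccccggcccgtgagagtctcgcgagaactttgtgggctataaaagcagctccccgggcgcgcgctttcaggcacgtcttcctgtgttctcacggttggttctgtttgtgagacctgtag
The core began 135 bases before the start in Prdx1, as GCTGAGTCA, and 35 bases before it in Sod2, as GCAGGGTCA, on the complement of the printed strand in both. Prdx4 (GCTTGGTCA) and Prdx5 (GCAGAGTCA) held it too, so that it was present in 4 of the 8 member promoters in the table and in 12.1% of all 33469 promoters of this length. The promoters of Cat, Sod1, Prdx2 and Prdx3 had no match, and Sod3 and Prdx6 were not matched in the table. The member promoters held 58.3% to 72.0% G and C, beside a median of 51.7% over all promoters. The part of this difference in the shares of matches was not tested. A match is a run of letters and no measured binding site.

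None of the 10 genes passed the test for a difference between carbon tetrachloride and corn oil. In limma, fitted over 31193 transcripts, their adjusted p ran from 0.825 for Prdx4 to 0.994 for Cat, 0 of 10 had an unadjusted p under 0.05, and of all transcripts 0.00321% passed an adjusted p of 0.05 and 6.27% an unadjusted p of 0.05. The log2 changes ran from -0.15 for Prdx4 to 0.13 for Sod2, 6 above and 4 below 0, with a median of 0.03 beside 0.0073 over all transcripts. The median size of the change was 0.05 in these genes, 0.06 in the 10414 transcripts of the same range of signal and 0.10 in all transcripts. The groups did not overlap for 1 gene, Prdx4, with the treated values lower, where among all transcripts the treated values lay wholly below the controls for 5.30% and wholly above them for 7.50%. The 95% intervals set limits on what could have been missed. On the probe used for each gene, all 10 lay within a 2-fold change in either direction and 9 within 1.5-fold. Those of Cat, Prdx2, Prdx3, Prdx5 and Prdx6, 5 of the 10, lay within 1.2-fold. The dimmer of the 2 Sod2 probes had a wider interval than the one used, from -0.69 to 0.70 (log2). Values below are the signal as a multiple of the array's 75th percentile, given for replicates 1, 2 and 3 of each group, and they are compared only within a probe. All members were well above background on all 6 arrays and unsaturated.

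**Figure D1:**
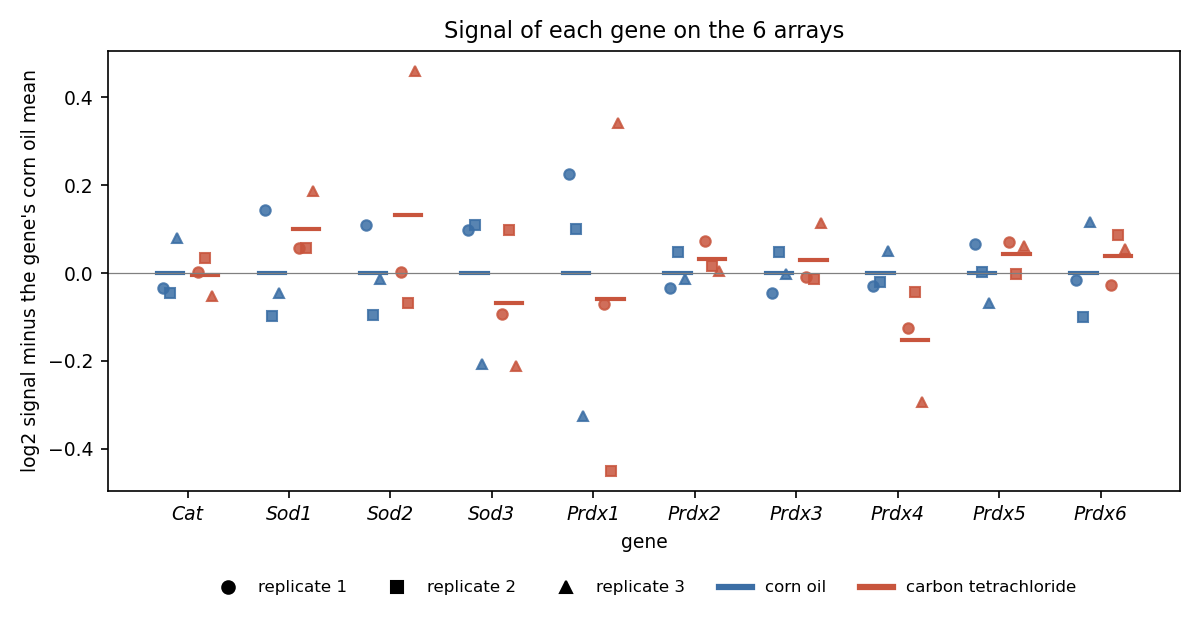
Log2 signal of each gene on each of the 6 arrays, with the gene's corn oil mean set to 0; blue is corn oil, red is carbon tetrachloride, the symbol gives the replicate and the bars are group means (n = 3). Values of both groups overlap for 9 genes, Prdx1 and Sod2 spread the most, and the treated values of Prdx4 lie below its controls.

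Sod1 gave 276, 234 and 242 times the 75th percentile in corn oil rats and 260.0, 260.4 and 285 times in treated rats. The groups overlapped, since corn oil replicate 1 exceeded all but 1 treated array. Its log2 change was 0.10 ± 0.09 (SE, n = 3 per group; adjusted p = 0.856), a difference of 7.18% with a 95% interval from -8.11% to 25.0%. Its 3 probes gave the same order of high and low arrays at the extremes, with corn oil replicate 2 lowest and carbon tetrachloride replicate 3 highest on each, and log2 changes of 0.10, 0.06 and 0.09.

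Sod2 gave 7.94, 6.89 and 7.29 times the 75th percentile in corn oil rats and 7.37, 7.02 and 10.1 times in treated rats. Only carbon tetrachloride replicate 3 stood above the controls, and that array alone lay on a second slide and in a second scan. The log2 change was 0.13 ± 0.16 (SE, n = 3 per group; adjusted p = 0.889), and without that array it was -0.033. The dimmer Sod2 probe showed another order: 2.90, 2.79 and 1.64 in corn oil rats and 1.77, 2.78 and 2.72 in treated rats. On this probe 1 rat of each group, corn oil replicate 3 and carbon tetrachloride replicate 1, lay well under the other 4, and the change was 0.0054 ± 0.28. The brighter probe did not show those 2 arrays as low, so the pattern of Sod2 across rats depends on the probe while neither probe gave a called difference between the groups.

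**Figure D2:**
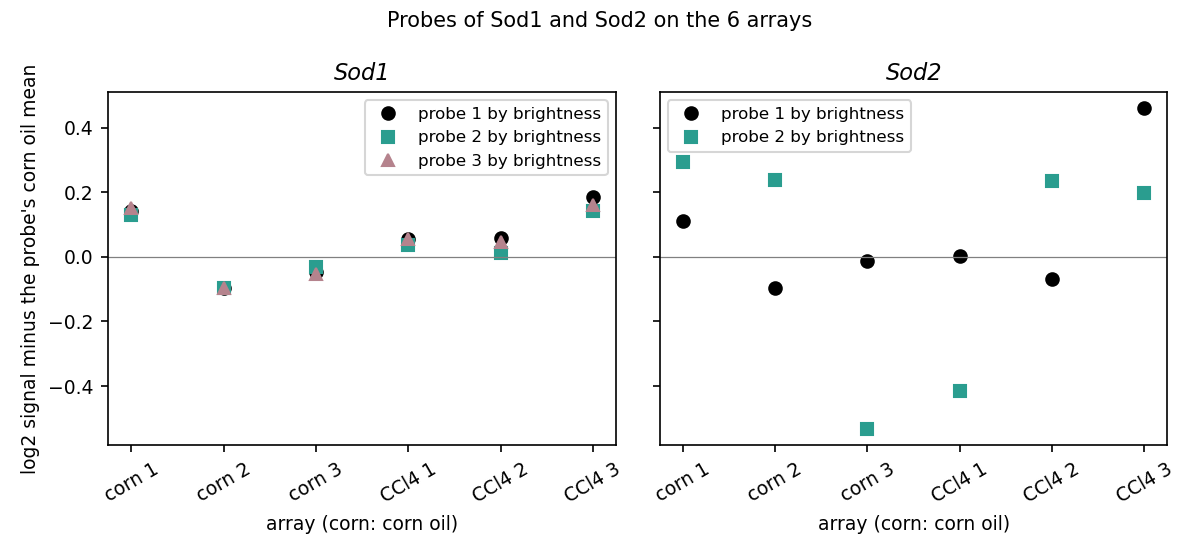
Log2 signal of the 3 probes of Sod1 (left) and the 2 probes of Sod2 (right) on the 6 arrays, each with its corn oil mean set to 0 (corn: corn oil; CCl4: carbon tetrachloride). The Sod1 probes move together, whereas the dimmer Sod2 probe is low on corn oil replicate 3 and carbon tetrachloride replicate 1 and the brighter probe is high on carbon tetrachloride replicate 3.

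Sod3, the extracellular enzyme, gave 75.4, 75.9 and 60.9 times the 75th percentile in corn oil rats and 66.0, 75.4 and 60.8 times in treated rats. The lowest array of each group was its replicate 3, and the groups covered nearly the same range. Sod3 had a log2 change of -0.07 ± 0.13 (SE, n = 3 per group; adjusted p = 0.932), with a 95% interval from -23.1% to 18.4%.

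Cat was among the steadier of the 10 genes, with an SD within groups of 0.06 (log2). It gave 8.31, 8.23 and 8.98 times the 75th percentile in corn oil rats and 8.51, 8.70 and 8.20 times in treated rats, so that the treated range lay almost inside the control range. Between the groups Cat had a log2 change of -0.0053 ± 0.07 (SE, n = 3 per group; adjusted p = 0.994), and the 95% interval of the difference ran from -11.5% to 12.1%.

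The typical 2-cysteine peroxiredoxins are Prdx1 and Prdx2 of the cytosol, Prdx3 of mitochondria and Prdx4 of the endoplasmic reticulum. Prdx1 varied more between rats than any of the other 9 genes. It gave 46.1, 42.3 and 31.5 times the 75th percentile in corn oil rats and 37.6, 28.9 and 50.04 times in treated rats, 1.73-fold from the lowest array to the highest. Both extremes were treated rats, replicate 2 low and replicate 3 high, and the controls lay between them. Its SD within groups was 0.35 (log2), above that of 95.3% of transcripts in the same range of signal, where the median was 0.09. The log2 change was -0.06 ± 0.24 (SE, n = 3 per group; adjusted p = 0.975), and the 95% interval, from -36.1% to 44.2%, is the widest of the 10. Without carbon tetrachloride replicate 2 the change was 0.14 and without replicate 3 it was -0.26, so its sign rests on single arrays. Replicate 3 lay alone on slide 2, so rat and slide cannot be told apart for it.

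Prdx2 varied little between rats, with 33.5, 35.5 and 34.0 times the 75th percentile in corn oil rats and 36.1, 34.7 and 34.4 times in treated rats. Its SD within groups of 0.04 was above that of 8.38% of transcripts in the range. The log2 change was 0.03 ± 0.06 (SE, n = 3 per group; adjusted p = 0.938), with an interval from -8.28% to 13.9%. Prdx3, the mitochondrial partner of Sod2 in hydrogen peroxide removal, gave 17.7, 18.9 and 18.3 times in corn oil rats and 18.2, 18.1 and 19.8 times in treated rats. Its log2 change was 0.03 ± 0.07 (adjusted p = 0.949), with carbon tetrachloride replicate 3 the highest array, as for Sod1, Sod2 and Prdx1.

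Prdx4, which removes peroxide made during the folding of secreted proteins, was the 1 gene whose groups did not overlap. It gave 1.47, 1.48 and 1.55 times the 75th percentile in corn oil rats and 1.38, 1.45 and 1.22 times in treated rats, lower in 3 of 3 treated rats. The gap between the groups was small, as the highest treated value of 1.45 stood just under the lowest control value of 1.47. The log2 change was -0.15 ± 0.09 (SE, n = 3 per group; adjusted p = 0.825), a difference of -10.1% with a 95% interval from -22.3% to 4.08%, and it was -0.08 without carbon tetrachloride replicate 3. Of the 12 leukocyte markers 0 passed an adjusted p of 0.05 and 5 an unadjusted p of 0.05, and 11 had a log2 change below 0, where 14923 of all 31193 transcripts did. Their summed signal was 52.3 to 59.7 in corn oil rats and 38.6 to 47.7 in treated rats, and each was well above background on at least 1 array. Their part in the Prdx4 values was not tested. In bulk tissue, fewer cells of a type and less RNA per cell cannot be told apart.

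Prdx5, an atypical 2-cysteine enzyme found in mitochondria, peroxisomes and cytosol, gave 71.6, 68.4 and 65.1 times the 75th percentile in corn oil rats and 71.8, 68.2 and 71.3 times in treated rats. Prdx6, the 1-cysteine member that also acts on oxidised phospholipids, gave 14.6, 13.8 and 16.1 times in corn oil rats and 14.5, 15.7 and 15.4 times in treated rats. Both genes overlapped between the groups, with log2 changes of 0.04 ± 0.07 (SE, n = 3 per group; adjusted p = 0.918) for Prdx5 and 0.04 ± 0.08 (adjusted p = 0.945) for Prdx6.

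**Figure D3:**
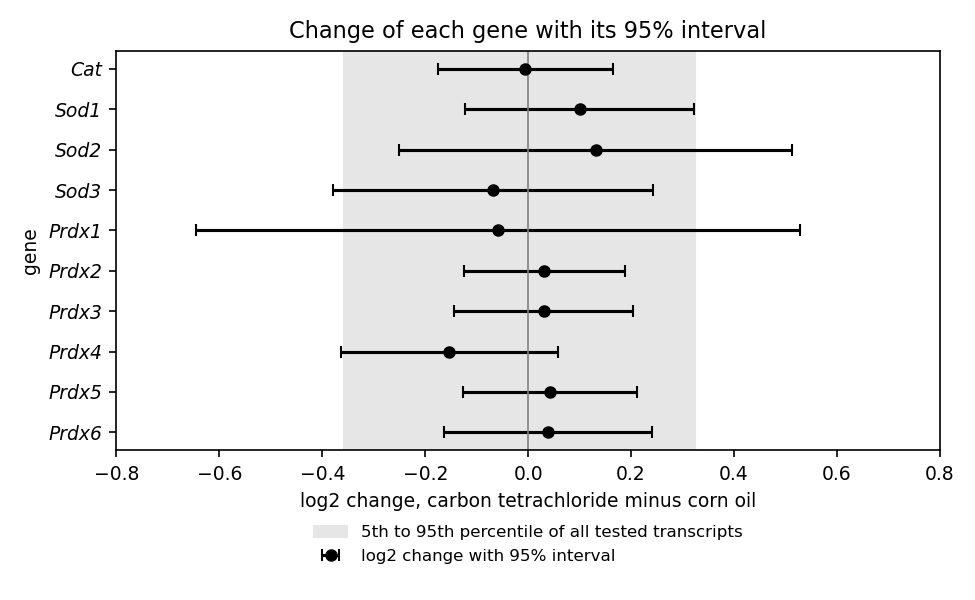
Log2 change of each gene, carbon tetrachloride minus corn oil, with its 95% interval from limma (n = 3 per group); the grey band is the 5th to 95th percentile of the change over all 31193 tested transcripts, -0.36 to 0.32. All 10 intervals include 0, narrowest for Prdx2 and widest for Prdx1.

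The 10 genes did not move as a block from rat to rat. Relative to the corn oil means, 5 genes were higher in carbon tetrachloride replicates 1 and 2 and 7 in replicate 3, and 5, 5 and 3 in the corn oil replicates. The highest single deviation was Sod2 at 0.46 (log2) in carbon tetrachloride replicate 3, and the lowest was Prdx1 at -0.45 in carbon tetrachloride replicate 2. Of the 45 pairs of genes, 20 had a positive Pearson correlation over the 6 arrays and the median was -0.09, a description only, since all pairs share the same arrays.

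Genes around these enzymes gave the same picture of differences that did not pass. They cover the thioredoxin cycle, metal supply, peroxisomes, sources of superoxide and hydrogen peroxide, other peroxidases and regulators. Of 92 such genes in 7 lists, 80 were tested, 9 matched no probe and 3 were too dim in both groups. None passed an adjusted p of 0.05, with adjusted p from 0.754 to 0.999, and 3 (Gpx6, Ppargc1b and Ero1b) had an unadjusted p under 0.05, against the 6.27% of all transcripts given above. There were 49 log2 changes above 0 and 31 below, with a median of 0.02. The treated values lay wholly above the controls for 5 of the 80 genes and wholly below them for 4, beside the 7.50% and 5.30% of all transcripts. Over the 80 genes together such genes were about as frequent as elsewhere, but the lists differed. The 8 other peroxidases held 3 of the 4 wholly lower genes and 1 of the 5 wholly higher.

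Thioredoxins and their reductases return electrons to most peroxiredoxins. Of 13 tested genes of that cycle 9 had a change above 0 and 4 below, with a median of 0.06 beside 0.0073 over all transcripts. The cytosolic thioredoxin gene Txn1 had 0.14 ± 0.12, its mitochondrial counterpart Txn2 0.08 ± 0.08, and the reductase genes Txnrd1 and Txnrd2 0.06 ± 0.07 and 0.05 ± 0.14. Srxn1, which encodes the sulfiredoxin that repairs over-oxidised peroxiredoxins, gave 2.92, 1.87 and 1.61 times the 75th percentile in corn oil rats and 4.27, 2.28 and 1.60 times in treated rats. Carbon tetrachloride replicate 1 was its highest array and replicate 3 its lowest, unlike Prdx1, whose highest array was replicate 3. These 5 genes were singled out for their role after their values were seen. The smallest p in this list belonged to Txndc17 at -0.09 ± 0.06, lower in 3 of 3 treated rats, Txnrd3 at 0.13 ± 0.09 and the stress-induced sestrin gene Sesn2 at 0.13 ± 0.11 (limma adjusted p from 0.834 to 0.847).

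Superoxide dismutases need copper and manganese. Ccs, the chaperone that loads copper into Sod1, was singled out in the same way and had a log2 change of 0.02 ± 0.08. Of 12 tested genes of metal supply 9 had a change above 0 and 3 below, with a median of 0.02. The smallest p were those of Slc25a39, Slc31a1 and Slc39a14 (limma adjusted p from 0.799 to 0.845). The mitochondrial carrier gene Slc25a39 had 0.18 ± 0.09 and was higher in 3 of 3 treated rats. The copper importer gene Slc31a1 had -0.26 ± 0.19 and the metal importer gene Slc39a14 0.25 ± 0.20. Carbon tetrachloride replicate 3, alone on slide 2, was the lowest array for Slc31a1 and the highest for Slc39a14. Of 4 tested Slc39a14 probes 3 had a change above 0.

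Catalase works in peroxisomes beside oxidases that make hydrogen peroxide. Of 14 peroxisome assembly genes 10 had a change above 0 and 4 below, with a median of 0.02. Those of smallest p were Pex6 at 0.13 ± 0.08, Pex7, the import receptor for some matrix enzymes, at 0.08 ± 0.06 and Pex10 at 0.08 ± 0.07 (limma adjusted p from 0.834 to 0.854). The 8 peroxisomal oxidases were split evenly, with 4 above and 4 below 0. Among them Ddo, which oxidises acidic D-amino acids, had 0.16 ± 0.10 and the sarcosine oxidase gene Pipox -0.69 ± 0.45. Pipox gave 0.656, 0.487 and 0.831 times the 75th percentile in corn oil rats and 0.348, 0.763 and 0.240 times in treated rats, a scatter that overlapped between the groups.

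Of 14 other sources of superoxide and hydrogen peroxide 6 had a change above 0 and 8 below, with a median of -0.01. Nox4, the NADPH oxidase of renal tubules, had 0.12 ± 0.06 and was higher in 3 of 3 treated rats, Nox1 had -0.21 ± 0.13 and the disulphide oxidase gene Ero1b -0.34 ± 0.12 (limma adjusted p from 0.776 to 0.833). Of 8 other peroxidases 4 lay above and 4 below 0. The treated values lay wholly above the controls for 1 of the 8 and wholly below them for 3, beside 7.50% and 5.30% of all transcripts. The summed signal of the 8 did not overlap between the groups, at 707 to 726 in corn oil rats and 742 to 796 in treated rats. Gpx6 at -0.37 ± 0.10, the matrix peroxidase gene Pxdn at -0.14 ± 0.07 and the endoplasmic reticulum peroxidase gene Gpx8 at -0.33 ± 0.17 were lower in 3 of 3 treated rats, without passing (limma adjusted p from 0.754 to 0.808), and Gpx6 and Pxdn each had a second tested probe of opposite sign. Gpx4, which reduces lipid peroxides and was named after its values were seen, had 0.08 ± 0.07 and was higher in 3 of 3 treated rats. Of 11 regulators of antioxidant genes 7 had a change above 0 and 4 below. Ppargc1b, a coactivator of mitochondrial genes, had 0.38 ± 0.11 and was higher in 3 of 3 treated rats, Keap1, the repressor of NRF2, 0.15 ± 0.08 and the transcription factor gene Foxo3 0.21 ± 0.12 (limma adjusted p from 0.765 to 0.825).

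**Figure D4:**
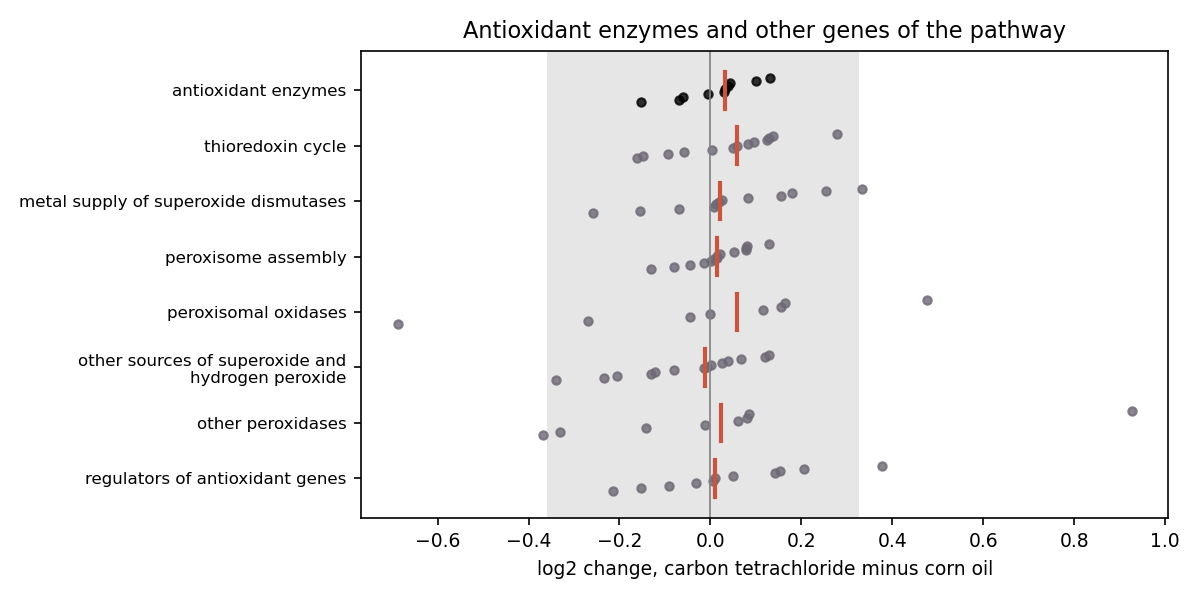
Log2 change, carbon tetrachloride minus corn oil, of the 10 antioxidant enzyme genes (top) and of the tested genes of 7 lists around them; each point is a gene, red bars are medians and the grey band is the 5th to 95th percentile of all tested transcripts, -0.36 to 0.32. The antioxidant enzymes all lie inside the band. The points farthest out are Gpx2 at 0.93 ± 0.55 (SE) among other peroxidases and Pipox at -0.69 ± 0.45 among peroxisomal oxidases. Gpx2 gave 6.15, 19.8 and 25.6 times the 75th percentile in corn oil rats and 23.3, 36.4 and 25.2 times in treated rats.

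The tissue label and the state of the arrays were checked against 10 marker lists. All 12 proximal tubule markers were tested, and their summed signal ran from 2309 to 2429 times the 75th percentile in corn oil rats and from 2410.2 to 2525 times in treated rats. Red blood cells hold much catalase, Sod1 and Prdx2 protein. Their summed marker signal was 475 to 666 in corn oil rats and 372 to 740.4 in treated rats. Their part in the values of Cat, Sod1 and Prdx2 was not tested. The summed signal of the 4 tested hepatocyte markers ran from 1.17 to 16.3 in corn oil rats and from 1.38 to 3.89 in treated rats. Among the 10 marker lists, the leukocyte list was the 1 list whose summed signal did not overlap between the groups. Of the other marker lists, endothelial markers had 9 of 10 changes above 0 with a median of 0.11. Markers of smooth muscle and pericytes had 7 of 8 with a median of 0.20. Genes wholly higher in treated rats numbered 2 of 10 for endothelium and 2 of 8 for smooth muscle and pericytes. They numbered 1 of 8 for podocytes and 1 of 4 for hepatocytes, beside 7.50% of all transcripts. Genes wholly lower numbered 4 of 12 for leukocytes and 1 of 8 for podocytes, beside 5.30% of all transcripts. Changes above 0 numbered 9 of 12 for proximal tubule, 5 of 11 for loop, distal tubule and collecting duct, 5 of 8 for podocytes, 4 of 8 for red blood cells, 2 of 3 for adrenal cortex, 1 of 4 for hepatocytes and 3 of 5 for adipocytes. In limma 0 markers of these 10 lists had an adjusted p under 0.05, and 11 an unadjusted p under 0.05. These were 5 of 12 for leukocytes, 2 of 8 for podocytes and 2 of 10 for endothelium. Smooth muscle and pericytes gave 1 of 8 and hepatocytes 1 of 4. Of all transcripts 6.27% had an unadjusted p under 0.05. Correlations between arrays over all tested probes ran from 0.9904 to 0.9937, and each array had 68.5% to 72.1% of its probes well above background.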

How the data were processed

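Cy3-labelled renal cortex RNA of 6 rats, 3 per group, was measured on 1-colour Agilent arrays. The scanner files hold spot intensity as deposited by the authors, extracted with Agilent Feature Extraction 10.7.1.1 per the file headers and 10.7 per the submitters' processing notes. This signal is background-subtracted within the array. The value table deposited by the authors is the same intensity divided by 1 factor per array, between 1015 and 1092, with column medians of 0.118, 0.111 and 0.114 (corn oil) and 0.116, 0.115 and 0.111 (carbon tetrachloride), which leaves no doubt about its scale, centring or direction.

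Each value is the log2 processed signal less that of the array's 75th percentile. Control spots (1439) and outlier flags (0 to 25 per array) were left out. Of 61537 probes, 42400 were tested, those well above background on all arrays of a group, and each gene was represented by its brightest tested probe, giving 31193 transcripts. Names came from RefSeq accessions (45.8% of probes matched; GRCr8, names and promoters only, the arrays' own build being another). limma 3.58.1 in R 4.3.3 gave two-sided p-values with Benjamini-Hochberg adjustment over all transcripts. The code was tested on simulated data. All members are named, and of each pathway list the 3 genes of smallest p. A gene that this rule takes is not reported here. Members and lists were chosen with earlier results of these data known. Alternatives were other background corrections, scalings, filters, probes and variance models, the replicate or slide as a block, and leaving out each array. The plan's mean spot signal was replaced by the median spot signal for normexp (offset 50). Replicates are biological per the design text.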

Additional observations from a re-analysis of the deposited data

How the results depend on the processing

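The count of 0 of the 10 genes past the threshold in limma held under every alternative that was run, with 0 at an unadjusted p under 0.05 as well. Sod1, Prdx2, Prdx4 and Prdx5 kept their direction in every setting, but not their size: without single arrays the log2 change ran from 0.05 to 0.17 for Sod1, from 0.011 to 0.06 for Prdx2, from -0.21 to -0.08 for Prdx4 and from 0.0088 to 0.08 for Prdx5. With the slide as a block, on slide 1 only and without carbon tetrachloride replicate 3, which are 1 comparison, the log2 changes of Cat (0.018), Sod2 (-0.033), Sod3 (0.0030) and Prdx3 (-0.011) turned sign. Without single arrays the change ran from -0.028 to 0.034 for Cat, from -0.033 to 0.23 for Sod2, from -0.17 to 0.0030 for Sod3, from -0.26 to 0.14 for Prdx1, from -0.011 to 0.055 for Prdx3 and from -0.012 to 0.10 for Prdx6. The count of 1 called transcript among all transcripts was 0 with normexp under either normalization, no filter, the filter on all 6 arrays, trend and robust fitting, the replicate block and the slide as a block or slide 1 only, and 0 to 2 without single arrays, 2 without corn oil replicate 3. The labels' replicate numbers gave correlations of -0.023, -0.097 and -0.079 between same-numbered arrays, which show no sign of pairing by number. Such values, from deviations around means of 3 arrays, cannot exclude a pairing. The replicate block called 0 of the 10 genes. Corn oil replicate 2 and carbon tetrachloride replicate 3 correlated best, at 0.13. Slide 2 held 1 treated array, so no comparison within it was possible. All 10 genes were well above background on all arrays.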
